A study of Mus musculus with 6 samples.

Results

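The collagen genes were described in mouse liver RNA after a long diet. They were taken by name alone, as every row of the count tables whose symbol is Col, a number, the letter a and a number. This rule used no measured difference, but it was set with earlier results of these data known. There were 44 such rows among 24982 gene rows, and the 34 with 10 or more counts summed over the 6 libraries are the genes described here: 9 fibrillar collagens, 6 basement membrane collagens, 5 beaded filament collagens and 14 of other types. The other 10 rows held 0 to 8 counts each over all libraries: Col9a2 had 8, Col17a1 had 5, Col6a4 had 2, Col2a1, Col9a1, Col11a1 and Col28a1 had 1, and Col10a1, Col19a1 and Col26a1 had 0. Of the libraries, 3 came from male C57BL/6NJ mice given high fat food and sugar water (HFHS) and 3 from male C57BL/6NJ mice on chow, in both cases over 54 weeks, in a study of diet-induced steatohepatitis and liver cancer. No genotype, drug or other agent is named for either group. The labels do not give the age at the start, whether each library came from a separate animal, or whether tumour tissue was in the liver taken. The p-values therefore measure only the spread between these libraries, which may in part be technical. Each library is polyA RNA of liver tissue of mixed cells, so a change in the number of cells of a type and a change in RNA per cell cannot be told apart in any result below.

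Collagens are triple helices of 3 chains, each chain the product of its own gene. Fibrillar collagens, above all types I and III, form the banded fibres of scar tissue and of the portal tracts. Type IV collagen forms the sheet of basement membranes, type VI forms beaded filaments around cells, and fibril-associated (FACIT) collagens coat the surface of fibres. In injured liver, stellate cells and portal fibroblasts are known as the main makers of fibrillar collagen, while hepatocytes are known to express type XVIII.

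Depth was 16565335 to 20585366 gene counts per library. Levels are CPM, the usual per-million read scale, with library sizes set by TMM, a method that evens out differences in RNA composition between libraries. HFHS replicate 2 stood apart from its group: its Pearson correlation across genes with HFHS replicates 1 and 3 was 0.961 and 0.957, against 0.982 between those 2, and its TMM factor was 1.26, against 1.02 and 1.01. The hepatocyte genes Alb, Apoa1, Ttr, Hnf4a and Cps1 were abundant in all 6 libraries. Ass1, a urea cycle enzyme gene also taken as a hepatocyte marker, was at only 0.394 ± 0.256 CPM in HFHS and 1.37 ± 0.512 CPM in chow (SD, n = 3 each).

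Genes for the main chains of collagen types I, III, IV and VI, and 2 of the 3 type V genes, were higher in HFHS liver than in chow liver, and 1 transmembrane collagen gene was lower. Of the 34 genes, 26 passed the filter on low counts, and of these 15 rose, 1 fell and 10 did not pass the test (quasi-likelihood test of edgeR, p adjusted by the Benjamini-Hochberg (BH) method over all 12949 genes tested, threshold 0.05). Among all tested genes 11.0% rose and 3.61% fell. A filter on low counts can let a gene in through the group where it is high, so the test was also run on every gene with 10 or more summed counts. All 34 were then tested, 16 rose and 1 fell, against 9.47% and 3.24% of 15094 genes. The wider rule can also let a gene in through 1 group. Col6a5 entered it with 59 counts in HFHS and 3 in chow, and Col22a1 with 9 and 1. Of the called genes, Col4a5 was under 10 counts in most chow libraries, Col8a1 in every chow library and Col25a1 in every HFHS library. Neither test removes this limit for them. In 20 of the 34 every HFHS library lay above every chow library, and in 3 every HFHS library lay below, against 22.5% and 16.1% of genes with 10 or more summed counts. The median log2 fold change of the 26 was 1.38, against -0.02 over all tested genes.

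These calls depended on which libraries and which tool were in the fit. Without chow replicate 3, edgeR called 0 of the 34 higher or lower, against 0.0301% of all genes higher and 0.0150% lower, which is 4 and 2 genes. At an unadjusted p under 0.05, 19 of the 34 were then higher and 2 lower, against 2139 and 1064 of all 13305 genes tested. At that threshold 2283 of 13291 genes were higher without chow replicate 2, and 2365 of 13296 without chow replicate 1. With all 6 libraries 2524 of 12949 were higher and 1660 lower. The unadjusted counts given further below stand against these. Without chow replicate 2, 7 of the 34 rose and 1 fell, against 2.60% and 0.850% of all genes, and without chow replicate 1, 10 rose and 1 fell, against 5.73% and 1.33%. Leaving out HFHS replicate 1, 2 or 3 gave 14, 14 and 16 rises, against 9.02%, 9.42% and 12.6% of all genes, and 1 fall each time, against 2.23%, 3.01% and 5.83%. DESeq2 called 16 higher and 2 lower, against 14.0% and 7.52%, and limma-voom called 12 higher and 1 lower, against 7.66% and 2.86%. With no filter on low counts 14 rose and 1 fell, against 8.17% and 2.83%, and with the replicate number as a block 14 rose and 1 fell, against 7.42% and 2.18%. Among named genes, Col15a1 lost its call without HFHS replicate 1, and Col4a2 without HFHS replicate 2. Without chow replicate 1 the calls of Col1a1, Col3a1, Col5a2, Col4a2, Col8a1 and Col15a1 were lost. Without chow replicate 2 those of Col1a1, Col1a2, Col3a1, Col5a2, Col6a3, Col8a1, Col15a1 and Col16a1 were lost. The sign of each of the 16 called genes was the same in all 15 alternative fits.

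**Figure D1:**
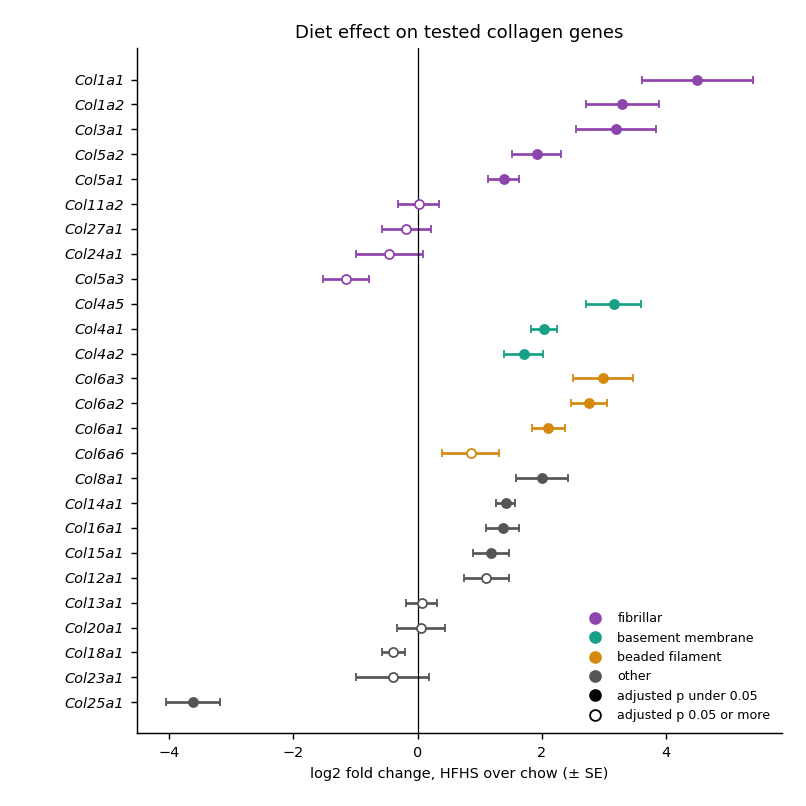
Log2 fold change (HFHS over chow, ± SE) of the 26 tested collagen genes from edgeR, grouped and coloured by type, with filled points for a Benjamini-Hochberg adjusted p under 0.05. Col1a1 stands highest at 4.51, all 3 tested type IV genes are filled, and Col25a1 at -3.62 is the one filled point left of 0.

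The stretches before the annotated starts of the collagen genes were read for 3 motifs. These were CCAAT, the core bound by NF-Y, TATAAA, and GGGCGG, a core bound by Sp1, each on both strands in the 250 bases before a RefSeq start (GRCm38.p6), and matches that overlapped each other were each counted. Some of these starts, with their windows, lie inside the annotated gene span, among them those of Col15a1, Col20a1, Col25a1 and Col27a1. A window was given for 27 of the 34 genes, and Col1a1, Col4a3, Col5a2, Col9a3, Col12a1, Col14a1 and Col22a1 had none. Of the 12 genes that rose and have a window, 5 held CCAAT, 1 held TATAAA, 7 held GGGCGG and 3 held none of them, against 33.8%, 12.4% and 32.7% of 32851 windows in all for the 3 motifs. Of the 9 with a window that did not pass the test, 2, 2 and 6 held them. Windows of the genes that rose had a median GC content of 60.8%, against 52.4% over all windows. It was also 60.8% for the genes that did not pass the test, and 60.4% for all 27 with a window. The 250-base window of Col25a1, the gene that fell, lay inside its gene span and held CCAAT and GGGCGG. The 5 sequences printed here are 120 bases each, taken from before the annotated span and exons of the gene, with motif matches in capitals. They set 4 genes that rose, with unlike letters before their starts, beside Col18a1, the most abundant collagen, which did not pass the test: Col3a1 (chr1:45311418-45311537, plus strand), Col1a2 (chr6:4505373-4505492, plus strand), Col5a1 (chr2:27886261-27886380, plus strand), Col6a3 (chr1:90844002-90844121, minus strand) and Col18a1 (chr10:77166549-77166668, minus strand). The Col1a2 stretch ends 125 bases before its RefSeq start.
Col3a1: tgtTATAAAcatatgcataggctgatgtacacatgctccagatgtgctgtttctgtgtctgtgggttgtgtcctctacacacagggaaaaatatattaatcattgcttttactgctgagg
Col1a2: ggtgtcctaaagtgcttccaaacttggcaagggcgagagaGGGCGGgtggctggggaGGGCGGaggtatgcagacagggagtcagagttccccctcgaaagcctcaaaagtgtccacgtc
Col5a1: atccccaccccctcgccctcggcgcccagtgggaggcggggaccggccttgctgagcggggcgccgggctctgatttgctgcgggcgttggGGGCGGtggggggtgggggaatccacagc
Col6a3: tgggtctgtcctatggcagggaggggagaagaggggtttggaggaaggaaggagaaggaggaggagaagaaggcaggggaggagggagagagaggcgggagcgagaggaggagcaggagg
Col18a1: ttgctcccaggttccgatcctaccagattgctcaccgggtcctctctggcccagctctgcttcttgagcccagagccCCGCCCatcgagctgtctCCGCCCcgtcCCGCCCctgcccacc
The Col3a1 stretch holds TATAAA, those of Col1a2, Col5a1 and Col18a1 hold GGGCGG or its reverse complement, and that of Col6a3 holds none of the 3. A match is a description of the sequence only.

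Among the 9 fibrillar genes, Col1a1, Col1a2, Col3a1, Col5a1 and Col5a2 rose, and Col5a3, Col11a2, Col24a1 and Col27a1 did not pass. Col1a1, which encodes the alpha 1 chain of type I collagen (GRCm38.p6, chromosome 11, 94936224 to 94953042), was at 23.6, 90.2 and 12.0 CPM in HFHS replicates 1, 2 and 3, against 2.50, 1.76 and 1.21 CPM in chow replicates 1, 2 and 3. The lowest HFHS library lay above the highest chow library, and HFHS replicate 2 was far above the other two. The log2 fold change was 4.51 ± 0.89 (SE; BH-adjusted p by edgeR = 0.0248), and 3.28 without HFHS replicate 2. Col1a2, the alpha 2 chain of the same helix (chromosome 6, 4505618 to 4541543), was at 39.5, 112 and 27.7 CPM in HFHS, against 7.78, 6.10 and 4.24 CPM in chow. It followed the same order of HFHS libraries and rose by 3.30 ± 0.59 (SE; BH-adjusted p by edgeR = 0.0195), or 2.48 without HFHS replicate 2. Col3a1, whose product forms type III fibres (chromosome 1, 45311538 to 45349706), was at 69.5, 217 and 49.7 CPM in HFHS, against 13.8, 15.4 and 7.34 CPM in chow. Groups did not overlap, and the log2 fold change was 3.20 ± 0.65 (SE; BH-adjusted p by edgeR = 0.0263), or 2.29 without HFHS replicate 2. Col3a1 shares exon sequence on its own strand with Gm47302, which has no row in the tables, so reads of the 2 genes cannot be separated. In the fit with no filter on low counts Col1a1 and Col3a1 lost their calls, and with limma-voom Col1a1 lost its call (BH-adjusted p by limma = 0.0797). Among the genes that rose, Col5a1, Col4a1, Col4a2 and Col15a1 share exon sequence with annotated genes on the opposite strand, Col4a1 and Col4a2 with each other.

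Type V collagen is known to sit inside type I fibres and to set their width. Col5a1 was at 13.8, 21.0 and 11.7 CPM in HFHS, against 4.84, 6.87 and 6.06 CPM in chow, with no overlap, a log2 fold change of 1.39 ± 0.25 (SE; BH-adjusted p by edgeR = 0.0161). Col5a2 was at 8.78, 21.2 and 8.88 CPM in HFHS, against 3.33, 4.18 and 2.76 CPM in chow. HFHS replicates 1 and 3 were alike and replicate 2 was higher, and the log2 fold change was 1.92 ± 0.39 (SE; BH-adjusted p by edgeR = 0.0223). With limma-voom Col5a2 did not pass (BH-adjusted p by limma = 0.0541). The third type V chain went the other way in level: Col5a3 was at 26.2, 14.1 and 30.8 CPM in HFHS, against 35.5, 75.4 and 46.4 CPM in chow. Each HFHS library lay below each chow library, but the difference of -1.15 ± 0.37 (SE) on the log2 scale did not pass (BH-adjusted p by edgeR = 0.0807). DESeq2 called it lower, at an adjusted p of 0.00862.

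The remaining fibrillar genes overlapped between the diets. Col27a1 was at 62.4, 53.0 and 56.0 CPM in HFHS, against 37.9, 44.8 and 111 CPM in chow, where replicate 3 alone was above all HFHS libraries. Its log2 fold change was -0.18 ± 0.40 (SE), and 0.46 without chow replicate 3. Col11a2 was at 1.03, 1.38 and 1.17 CPM in HFHS, against 1.28, 0.824 and 1.48 CPM in chow, a log2 fold change of 0.02 ± 0.33 (SE; BH-adjusted p by edgeR = 0.978). Col24a1 had 27 counts in the HFHS libraries and 30 in the chow libraries. Fibrillar rises came to 5 of 9, against 11.0% of all tested genes. They came to 2, 1 and 0 without chow replicates 1, 2 and 3, with 5, 5 and 6 higher at an unadjusted p under 0.05.

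**Figure D2:**
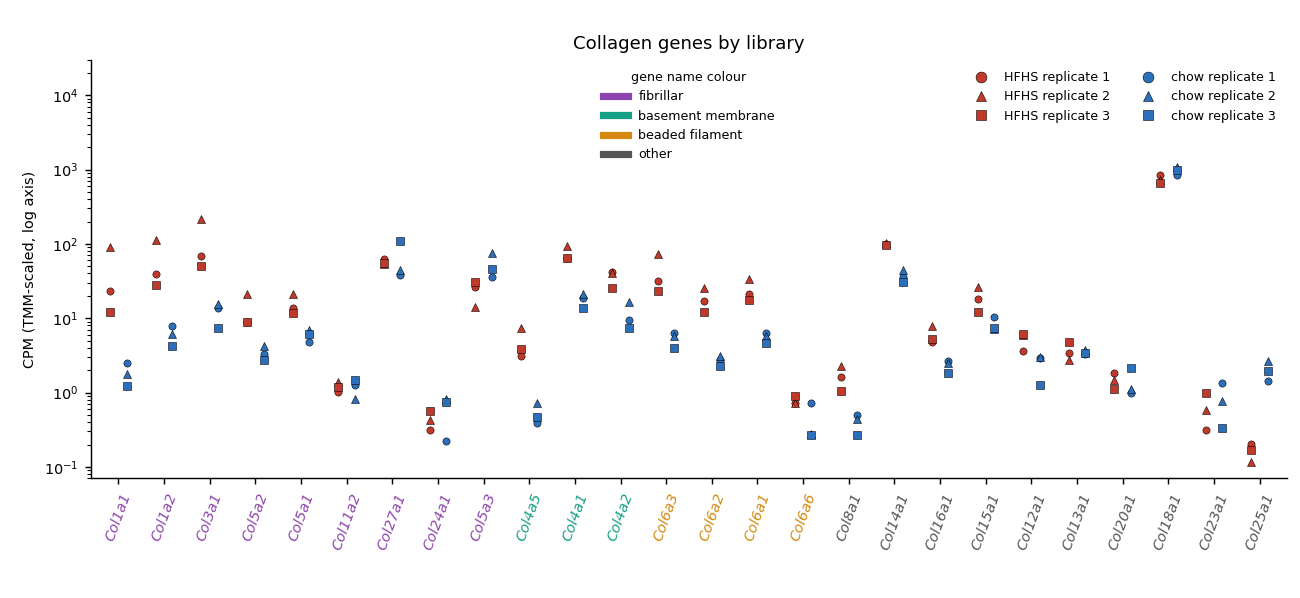
CPM of the 26 tested collagen genes in each library (log axis), with HFHS libraries left of chow libraries at each gene and the marker shape giving the replicate. Col1a1, Col1a2 and Col3a1 spread widely among HFHS libraries (12.0 to 90.2 CPM for Col1a1), Col14a1 hardly spreads (97.6 to 102 CPM), and Col18a1 lies far above the rest in both groups.

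All 3 type IV genes with enough counts for the test rose, against 11.0% of all tested genes. Of these, Col4a5 had only 7, 13 and 7 counts in chow. Col4a1, a chain of the basement membrane helix found in nearly every tissue (chromosome 8, 11198423 to 11312889), was at 65.5, 92.3 and 64.1 CPM in HFHS, against 18.9, 21.0 and 13.8 CPM in chow. The HFHS libraries lay well apart from chow, with a log2 fold change of 2.04 ± 0.21 (SE; BH-adjusted p by edgeR = 0.00754). Col4a2, which joins Col4a1 in that helix (chromosome 8, 11312805 to 11449287), was at 42.4, 40.0 and 25.8 CPM in HFHS, against 9.45, 16.3 and 7.34 CPM in chow. It rose by 1.71 ± 0.32 (SE; BH-adjusted p by edgeR = 0.0191) and did not pass without HFHS replicate 2, where the log2 fold change was 1.63. Col4a5, on chromosome X and known for its part in the kidney filter, was at 3.10, 7.35 and 3.80 CPM in HFHS, against 0.389, 0.714 and 0.471 CPM in chow. Its log2 fold change was 3.16 ± 0.44 (SE; BH-adjusted p by edgeR = 0.0102). Without chow replicate 3 none of the 3 passed, with 4 type IV genes at an unadjusted p under 0.05.

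The other type IV chains had too few counts for the filter. Col4a6 had 15, 52 and 7 counts in HFHS, against 2, 3 and 8 in chow, so that HFHS replicate 2 held 70.3% of the HFHS counts and the groups overlapped. The ratio of summed counts scaled to library size was 4.59, with an exact 95% interval of 2.53 to 9.03 that covers counting error only. Col4a3 and Col4a4, partners of Col4a5 in the kidney, came to 19 and 27 counts in HFHS and 17 and 20 in chow, with ratios of 0.902 (interval 0.444 to 1.85) and 1.09 (interval 0.588 to 2.05). In the test on every gene with 10 or more summed counts, none of the 3 passed.

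Type IV genes lie in head-to-head pairs. The annotated 5′ ends of Col4a1 and Col4a2 are 84 bases apart with gene spans that overlap by 85 bases, those of Col4a3 and Col4a4 are 113 bases apart, and those of Col4a5 and Col4a6 are 1275 bases apart. The library kit marks strand, but no source used here gives the strand setting of the counting, so reads from the shared bases may be assigned to either gene or to none. Both members of the Col4a1 and Col4a2 pair rose, and of the Col4a5 and Col4a6 pair Col4a5 rose and Col4a6 did not pass in the wider test (1.99 ± 0.77, SE; BH-adjusted p by edgeR = 0.121).

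Type VI genes lay higher in every HFHS library than in every chow library for all 5 with 10 or more summed counts, against 22.5% of all such genes. For Col6a6 the margin was within rounding. Of the 4 tested, 3 rose, against 11.0% of all tested genes. Col6a2 was at 17.2, 25.6 and 12.3 CPM in HFHS, against 2.72, 3.08 and 2.29 CPM in chow, a log2 fold change of 2.76 ± 0.29 (SE; BH-adjusted p by edgeR = 0.00775). Col6a1 was at 21.4, 33.4 and 17.4 CPM in HFHS, against 6.39, 5.77 and 4.58 CPM in chow, a log2 fold change of 2.11 ± 0.27 (SE; BH-adjusted p by edgeR = 0.00943). These 2 chains and the one encoded by Col6a3 make the common form of type VI collagen. Col6a3 was at 31.3, 74.3 and 23.1 CPM in HFHS, against 6.39, 5.77 and 3.97 CPM in chow. It rose by 2.99 ± 0.48 (SE; BH-adjusted p by edgeR = 0.0155), or 2.34 without HFHS replicate 2. Without chow replicate 2 the calls in this type came to 2 and without chow replicate 3 to 0, with 4 at an unadjusted p under 0.05 in each.

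Col6a5 and Col6a6 encode later-found chains that can take the place of the Col6a3 chain. Col6a5 had 18, 32 and 9 counts in HFHS, against 2, 1 and 0 in chow, where 0 allows up to 0.202 CPM in chow replicate 3. The scaled ratio was 15.9 (95% counting interval 5.17 to 79.1). Col6a5 rose in the test on genes with 10 or more summed counts (log2 fold change 3.77 ± 0.74, SE; BH-adjusted p by edgeR = 0.0186), and it is the 1 gene that this wider test added. Col6a6 was at 0.723, 0.731 and 0.893 CPM in HFHS, against 0.723, 0.275 and 0.269 CPM in chow, where replicate 1 came within rounding of the lowest HFHS library. It did not pass (0.86 ± 0.46, SE; BH-adjusted p by edgeR = 0.247).

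Of the 14 genes of other types 10 were tested, and 4 rose and 1 fell, against 11.0% and 3.61% of all tested genes. Col14a1, a FACIT collagen that binds the surface of fibres (chromosome 15, 55307644 to 55520803), was at 98.8, 102 and 97.6 CPM in HFHS, against 35.9, 44.7 and 31.1 CPM in chow. The HFHS libraries agreed to within 1.05-fold, and the log2 fold change was 1.42 ± 0.15 (SE; BH-adjusted p by edgeR = 0.00754). Col16a1, also a FACIT, was at 4.85, 7.92 and 5.19 CPM in HFHS, against 2.67, 2.47 and 1.82 CPM in chow, a log2 fold change of 1.37 ± 0.27 (SE; BH-adjusted p by edgeR = 0.0202). Col8a1, a short-chain network collagen of vessel walls, was at 1.60, 2.27 and 1.06 CPM in HFHS, against 0.500, 0.440 and 0.269 CPM in chow, and rose by 2.01 ± 0.42 (SE; BH-adjusted p by edgeR = 0.0227). The FACIT gene Col12a1 was also separated, at 3.61, 5.92 and 6.09 CPM in HFHS, against 2.89, 3.02 and 1.28 CPM in chow, but did not pass (1.11 ± 0.36, SE; BH-adjusted p by edgeR = 0.0781). DESeq2 called it higher at an adjusted p of 0.0302. The rises of this mixed set came to 2, 1 and 0 without chow replicates 1, 2 and 3, with 5 at an unadjusted p under 0.05 in each.

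The 2 multiplexins, collagens with long interrupted helices at basement membranes, gave 1 rise and 1 gene that did not pass. Col15a1 was at 17.9, 26.3 and 12.1 CPM in HFHS, against 10.3, 7.25 and 7.34 CPM in chow, and rose by 1.18 ± 0.29 (SE; BH-adjusted p by edgeR = 0.0387). This was the smallest rise among the called collagens, and it was lost with limma-voom and with 5 of the other alternatives. Col18a1, whose product carries endostatin at its end (chromosome 10, 77052178 to 77166530), was at 835, 726 and 662 CPM in HFHS, against 848, 1083 and 987 CPM in chow. All HFHS libraries lay below all chow libraries, though HFHS replicate 1 was close to chow replicate 1, and the difference of -0.39 ± 0.18 (SE) on the log2 scale did not pass (BH-adjusted p by edgeR = 0.189). The log2 difference lay between -0.49 and -0.13 over 15 alternatives, the last with scaling by library size only.

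Col25a1, which encodes a transmembrane collagen known from neurons and from amyloid plaques (chromosome 3, 130180358 to 130599884), was the one collagen gene that fell. It had 4, 3 and 3 counts in HFHS, against 26, 49 and 29 counts in chow, which is 0.206, 0.115 and 0.167 CPM against 1.45, 2.69 and 1.95 CPM. All 3 HFHS libraries were close to the floor of 3 counts, so the size of the fall is uncertain. The fitted log2 fold change was -3.62 ± 0.43 (SE; BH-adjusted p by edgeR = 0.00795), and it lay between -3.82 and -3.36 over 15 alternatives. The call was lost in 1 of them, without chow replicate 3 (BH-adjusted p by edgeR = 0.053). The other 2 transmembrane members did not pass: Col13a1 was at 3.66 ± 1.04 CPM in HFHS and 3.46 ± 0.243 CPM in chow, and Col23a1 at 0.631 ± 0.351 CPM in HFHS and 0.813 ± 0.500 CPM in chow (SD, n = 3 each).

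The rest of the other types had few counts or did not pass. Col20a1 was at 1.81, 1.46 and 1.12 CPM in HFHS, against 1.00, 1.10 and 2.15 CPM in chow (0.06 ± 0.39, SE; BH-adjusted p by edgeR = 0.931), and it shares exon sequence on its own strand with BX649560.1. Col7a1, the anchoring fibril collagen of skin, had 34 counts in HFHS and 17 in chow, a scaled ratio of 1.61 (95% counting interval 0.877 to 3.08). The FACIT gene Col9a3 had 17 counts in HFHS and 12 in chow. Col8a2, a network collagen, had 14 counts in HFHS, 13 of them in replicate 2, and 4 in chow. Col22a1, a FACIT of tissue junctions, had 9 counts in HFHS and 1 in chow. The scaled Col22a1 ratio was 7.26 (95% counting interval 1.01 to 318), and none of these 4 passed in the test on genes with 10 or more summed counts.

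Among the 15 genes that rose, the spread between HFHS libraries differed from gene to gene. HFHS replicate 2 was the highest HFHS library for 14 of them, all but Col4a2, and HFHS replicate 3 was the lowest for 12. The same counts over all genes that rose were not taken. HFHS replicate 2 stood apart across genes in general, so this order is not read as particular to collagens. The range over the HFHS libraries was 2.91 on the log2 scale for Col1a1, 2.13 for Col3a1, 2.01 for Col1a2 and 1.68 for Col6a3. It was 0.53 for Col4a1 and 0.07 for Col14a1. The median log2 ratio of the 15 to the chow mean was 1.94, 2.58 and 1.64 in HFHS replicates 1, 2 and 3.

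**Figure D3:**
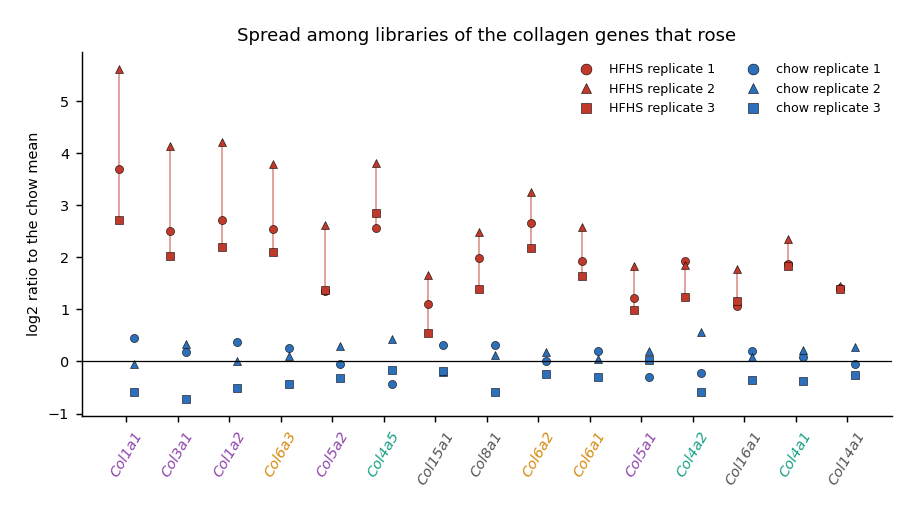
Log2 ratio of CPM to the chow mean for the 15 collagen genes that rose, ordered by the range over HFHS libraries (vertical lines), with gene names coloured by type (purple fibrillar, green basement membrane, orange beaded filament, grey other). The type I and III chains reach 4.15 to 5.63 in HFHS replicate 2, while the 3 HFHS points of Col14a1 lie on one another at 1.39 to 1.46.

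Ratios between chains of one helix, fibre or group were set side by side for 6 pairs, and in 4 of them the diets did not overlap. The share without overlap among ratios of other gene pairs was not taken, so this count is not read as particular to collagens. The pairs are also not independent, as Col1a1 is in both Col1a1 to Col1a2 and Col3a1 to Col1a1. A ratio of 2 counts within a library does not depend on scaling. The Col1a1 to Col1a2 count ratio was 0.597, 0.807 and 0.433 in HFHS, against 0.321, 0.288 and 0.286 in chow, with no overlap. The Col3a1 to Col1a1 ratio was 2.95, 2.41 and 4.14 in HFHS, against 5.51, 8.78 and 6.06 in chow, and the Col6a1 to Col6a2 ratio was 1.24, 1.31 and 1.41 in HFHS, against 2.35, 1.88 and 2.00 in chow. These too did not overlap, and both were lower in HFHS. The Col4a1 to Col4a2 ratio overlapped (1.54, 2.31 and 2.48 in HFHS, against 2.00, 1.29 and 1.88 in chow), and so did the Col5a1 to Col5a2 ratio (1.57, 0.993 and 1.31 in HFHS, against 1.45, 1.64 and 2.20 in chow). The ratio between the multiplexins, Col15a1 to Col18a1, was 0.0215, 0.0363 and 0.0183 in HFHS, against 0.0122, 0.00670 and 0.00743 in chow, again with no overlap. This was fixed in advance, as every HFHS library lay above every chow library for Col15a1 and below for Col18a1. Neither this separation nor its p is a further result. Over these 6 ratios the two-sided exact permutation p was 0.1 for the 4 separated ones, the smallest that 3 against 3 libraries can give, with a BH value of 0.15. It was 0.4 for Col4a1 to Col4a2 and 0.2 for Col5a1 to Col5a2 (exact permutation, BH values 0.4 and 0.24).

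**Figure D4:**
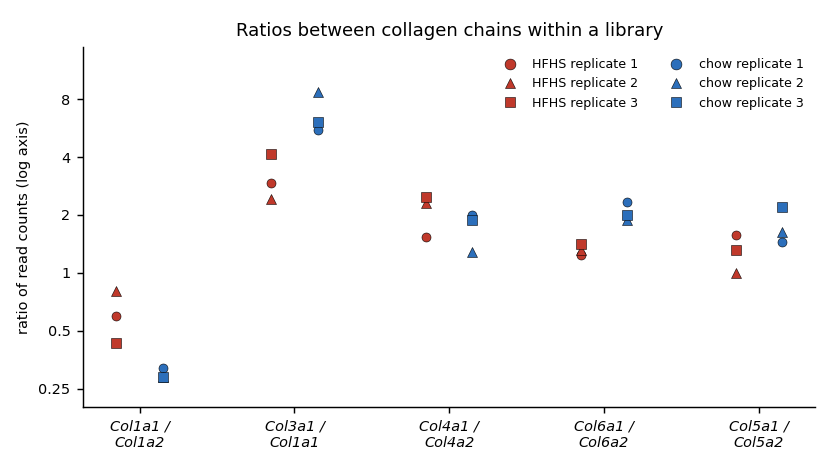
Ratio of read counts between 2 collagen genes in each library (log axis), HFHS left of chow. Col1a1 to Col1a2 lies at 0.433 to 0.807 in HFHS and 0.286 to 0.321 in chow, Col3a1 to Col1a1 and Col6a1 to Col6a2 lie lower in HFHS without overlap, and Col4a1 to Col4a2 and Col5a1 to Col5a2 overlap. The ratio of Col15a1 to Col18a1 is not drawn.

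Per kilobase of the longest annotated coding transcript, Col18a1 had the highest level in both groups, at 132 CPM per kb in HFHS and 174 in chow. In HFHS it was followed by Col3a1 at 20.1, Col14a1 at 15.4, and Col4a1 and Col1a2 at 11.2 CPM per kb each. In chow the next were Col5a3 at 8.57, Col27a1 at 8.50, Col14a1 at 5.77 and Col4a1 at 2.71 CPM per kb. Col1a1 stood 7th of the 34 in HFHS, at 7.07 CPM per kb, and 17th in chow, at 0.308 CPM per kb. Several of these places rested on 1 library. Without HFHS replicate 2, Col1a1 was at 3.00 CPM per kb and 11th in HFHS, Col3a1 at 10.7, below Col14a1 at 15.2, and Col1a2 at 6.28, below Col4a1 at 9.80 CPM per kb. Without chow replicate 3, Col27a1 was at 5.43 CPM per kb in chow, below Col14a1 at 6.24.

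Col18a1 alone made up 59.8%, 43.1% and 58.1% of all collagen counts in HFHS replicates 1, 2 and 3, against 79.9%, 79.6% and 78.8% in chow. The other 33 genes together were at 562, 959.6 and 477 CPM in HFHS, against 213, 277 and 266 CPM in chow, with no overlap. Of these 33, Col1a1, Col1a2 and Col3a1 took 23.6%, 43.7% and 18.7% of the counts in HFHS, against 11.3%, 8.40% and 4.81% in chow. Basement membrane genes took 18.2% ± 2.87 in HFHS and 12.2% ± 3.20 in chow, and beaded filament genes 12.7% ± 1.36 in HFHS and 5.75% ± 1.78 in chow (SD, n = 3 each), both without overlap. For basement membrane genes the margin was narrow, with 14.9% in HFHS replicate 2 against 14.1% in chow replicate 2. The fibrillar genes as a whole took 46.8% ± 7.36 in HFHS and 58.3% ± 9.19 in chow, with overlap. Col5a3 and Col27a1 together made up most of the fibrillar counts in each chow library. These shares are sums over the genes described and were given no test.

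**Figure D5:**
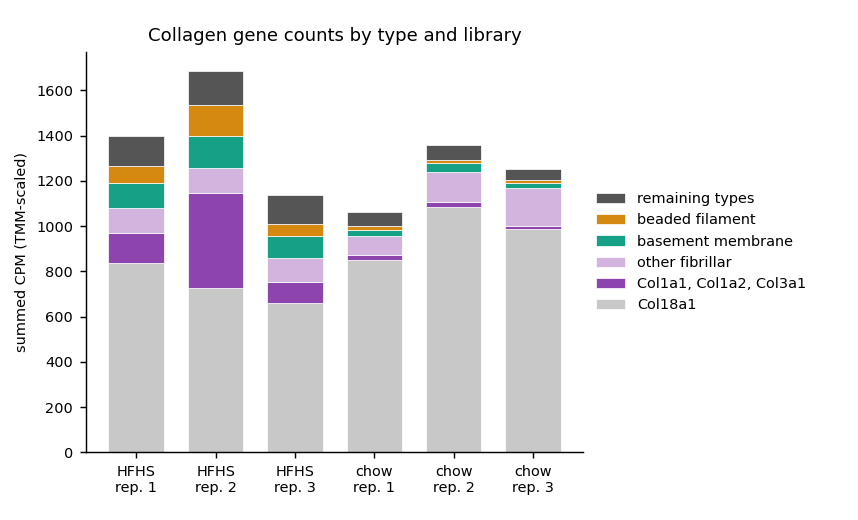
Summed CPM of the 34 collagen genes by type in each library, HFHS at the left and chow at the right. Col18a1 is the largest block in every library (662 to 835 CPM in HFHS, 848 to 1083 CPM in chow), and the block of Col1a1, Col1a2 and Col3a1 is widest in HFHS replicate 2.

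Genes whose products modify, process and bind collagen were read from 3 further lists, which were chosen with earlier results of these data known. Of 23 modification and folding genes, 22 were tested, 7 rose and 1 fell, against 11.0% and 3.61% of all tested genes, with a median log2 fold change of 0.45. Serpinh1, the collagen chaperone HSP47, was at 23.4 ± 7.64 CPM in HFHS and 5.67 ± 1.30 CPM in chow (SD, n = 3 each), and rose by 2.04 ± 0.27 (SE; BH-adjusted p by edgeR = 0.0101). The prolyl 3-hydroxylase partner Crtap rose by 1.61 ± 0.23 (SE) and the prolyl 3-hydroxylase P3h2 by 2.20 ± 0.33 (SE). P3h3, P4ha1, Plod2 and Fkbp10 also rose. Mia3, which loads procollagen into transport vesicles, fell by 0.64 ± 0.14 (SE; BH-adjusted p by edgeR = 0.0234), to 198 ± 13.8 CPM in HFHS, against 308 ± 19.0 CPM in chow. Its call was lost without HFHS replicate 1 and without chow replicate 1, 2 or 3, with adjusted p by edgeR of 0.064 to 0.108, with the replicate block, and with scaling by library size only, where the log2 fold change was -0.36. P4hb and Ppib, general folding enzymes that act on many proteins, did not pass, at -0.07 ± 0.19 and -0.24 ± 0.13 (SE) on the log2 scale.

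Of the 13 procollagen processing and cross-linking genes 12 had counts and 9 were tested. Of these 5 rose and 0 fell, against 11.0% and 3.61% of all tested genes (0 lower also with DESeq2, and 0 lower in edgeR at an unadjusted p under 0.05). Pcolce, which enhances removal of the C-terminal propeptide, rose by 1.55 ± 0.21 (SE), Adamts2, which removes the N-terminal propeptide, by 2.43 ± 0.43 (SE) and the lysyl oxidase Loxl2 by 1.94 ± 0.36 (SE). Loxl1 and Loxl3 rose as well, while the C-terminal protease Bmp1 did not pass, at -0.19 ± 0.16 (SE). Of the 14 collagen receptor and uptake genes 11 were tested, of which 7 rose and 0 fell, against the same shares (0 lower also with DESeq2, and 0 lower in edgeR at an unadjusted p under 0.05). The adhesion receptor Adgrg1 rose by 1.65 ± 0.23 (SE), the mannose receptor Mrc1 by 0.93 ± 0.13 (SE) and the collagen uptake receptor Mrc2 by 2.96 ± 0.47 (SE). The discoidin domain receptors Ddr1 and Ddr2, Lair1 and Stab1 rose too. Rises in the 3 lists came to 4, 1 and 3 without chow replicate 2 and to 0, 0 and 0 without chow replicate 3, with 11, 6 and 7 at an unadjusted p under 0.05 in the second case. Those of the processing list came to 3 without chow replicate 1.

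Markers of cells that make collagen, and of other cells, were also higher in HFHS for several types, and their counts stand against 11.0% of all tested genes higher. The marker lists too were chosen with earlier results of these data known. Stellate cell markers rose in 7 of 9, with summed levels of 259 to 358 CPM in HFHS and 116 to 139 CPM in chow. Portal fibroblast markers rose in 3 of the 6 tested. All 7 summed to 18.9 to 39.6 CPM in HFHS and 8.89 to 9.29 CPM in chow. Gli1, not tested, was at 0 in HFHS replicate 3 and chow replicate 1. Smooth muscle and myofibroblast markers rose in 2 of the 4 tested. All 5 summed to 29.6 to 47.1 CPM in HFHS and 14.3 to 18.2 CPM in chow. Cnn1, not tested, was at 0 in HFHS replicate 1 and chow replicate 3. Cholangiocyte markers rose in 5 of 6, at 11.4 to 27.8 CPM in HFHS and 4.84 to 9.73 CPM in chow, with Cftr at 0 in chow replicates 1 and 2. Endothelial markers rose in 4 of 7, at 237 to 308 CPM in HFHS and 158 to 201 CPM in chow, and macrophage markers in 4 of 4, at 342 to 466 CPM in HFHS and 127 to 165 CPM in chow. Without chow replicate 3 the calls came to 0 for each of these 6 types, with 8 stellate, 4 portal fibroblast, 2 smooth muscle, 5 cholangiocyte, 5 endothelial and 4 macrophage markers higher at an unadjusted p under 0.05 in edgeR. Without chow replicate 2 they came to 3 stellate, 1 portal fibroblast, 1 smooth muscle, 2 cholangiocyte, 4 endothelial and 3 macrophage markers. Without chow replicate 1 they came to 5 stellate, 2 portal fibroblast, 1 smooth muscle, 2 cholangiocyte, 2 endothelial and 4 macrophage markers. Leaving out HFHS replicate 1 gave 2 endothelial markers, and leaving out HFHS replicate 3 gave 5 portal fibroblast markers. Of 6 hepatocyte markers edgeR called 0, with 3 lower at an unadjusted p under 0.05 and 3 called lower by DESeq2, and edgeR called 1 lower without HFHS replicate 2 or 3. Their sum was 32667 to 86662 CPM in HFHS, lowest in replicate 2, and 86863 to 107205 CPM in chow. Alb made up most of that sum in every library. Ass1, 1 of the 3 lower at the unadjusted p, was at 0.619, 0.115 and 0.447 CPM in HFHS. In HFHS replicate 2 it was at the floor of 3 counts. Among HFHS libraries each of the 6 was lowest in replicate 2 except Hnf4a, which was lowest in replicate 3. Of 5 T, NK and B cell markers 3 were tested, while Cd3e and Cd3g had too few counts. The 5 summed to 3.41 to 7.50 CPM in HFHS and 1.92 to 4.17 CPM in chow. Of the 3 tested, edgeR and DESeq2 called 0, with 1 higher at an unadjusted p under 0.05. Of 3 neutrophil markers, at 9.88 to 34.9 CPM in HFHS and 2.29 to 7.39 CPM in chow, edgeR called 0, with 3 higher at an unadjusted p under 0.05 and 3 called higher by DESeq2, and edgeR called 1 higher without HFHS replicate 3 or chow replicate 1. HFHS replicate 2, the library with the most type I and III collagen RNA, was the highest HFHS library in the summed stellate, portal fibroblast, smooth muscle, cholangiocyte, macrophage, lymphocyte and neutrophil markers, and the lowest in the endothelial and hepatocyte ones. The part of these cells in the collagen levels was not tested.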

How the data were processed

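Liver RNA of 3 HFHS and 3 chow libraries was read as deposited whole-number counts per gene. The authors aligned with STAR to mm10, per the submitters' processing notes, and used a dUTP kit that marks strand, per the labels' protocols. The counting program, strand setting and annotation are not given in any source used. Rows that name no gene were left out of library sizes: 7.74% to 10.6% of counts per library had no feature and 0.615% to 0.862% were ambiguous.

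Genes were filtered with filterByExpr (minimum count 10) and tested with edgeR 4.0.16 (R 4.3.3): TMM scaling, robust quasi-likelihood fit, Benjamini-Hochberg adjustment over all 12949 genes, threshold 0.05. The SE is the log2 fold change over the square root of F. DESeq2 1.42.0 and limma-voom 3.58.1, other scalings and filters, each library left out and a replicate block were alternatives. Those for Mia3 and for levels per kilobase were chosen after seeing the data. The procedure was tested on simulated data. Intervals (95%, exact) and the floor of 3 counts cover counting error only. Gene spans and promoters are RefSeq GRCm38.p6, and transcript lengths and overlaps are GENCODE vM21.

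Named genes were, per type, the 3 with the smallest p and the 1 with the largest, plus the main liver collagens, with all others given briefly. The members, gene lists and printed promoters were chosen with earlier results of these data known.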

Additional observations from a re-analysis of the deposited data

How the results depend on the processing

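Of the 16 called collagens 0 changed sign in any alternative. Over all genes the 468 lower calls became 200 with scaling by library size only, which moved the median of all genes by 0.268 on the log2 scale, 974 with DESeq2 and 282 with a replicate block. Deviations of same-numbered replicates gave r of -0.253, -0.166 and 0.029, and those of other pairs gave r of -0.079 to 0.234. With 3 libraries a group these values cannot decide whether replicate numbers pair the samples. With the replicate block 14 collagens rose and 961 genes in all. DESeq2 called 2 collagens lower and 11 modification and folding genes higher, against 1 and 7. Fibrillar rises came to 3, against 5, both with no filter on low counts and with limma-voom, which also called 3 processing and cross-linking genes, against 5. Without Col1a1, Col1a2 and Col3a1 the share difference, HFHS minus chow, went to -29.39 percentage points for fibrillar genes, against -11.52, and to 12.29 for basement membrane genes, against 6.03. The cause of these shifts was not tested, except that the last removes the genes it concerns.

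With 1 library left out, higher calls over all genes ran between 4 and 1664 and lower calls between 2 and 772, with the lowest values without chow replicate 3. Collagens called higher ran between 0 and 16 and lower between 0 and 1. Higher calls ran between 0 and 5 for fibrillar, 0 and 3 for basement membrane, 0 and 4 for beaded filament and 0 and 4 for other collagens, and between 0 and 8 for modification, 0 and 6 for processing and 0 and 7 for receptor genes. Genes that did not pass changed sign: Col13a1 (0.07) ran between -0.18 without HFHS replicate 3 and 0.25 without HFHS replicate 2, Col23a1 (-0.40) between -0.87 without HFHS replicate 3 and 0.14 without chow replicate 1, and Col27a1 (-0.18) between -0.46 without chow replicate 1 and 0.46 without chow replicate 3, with 0.09 under library size only. Col11a2 went to -0.01 with no filter and with 10 or more summed counts, to -0.10 without HFHS replicate 2 and to -0.21 without chow replicate 2, the lowest, and was highest, 0.18, without chow replicate 3. Col20a1 went to -0.12 without HFHS replicate 1, -0.15 without chow replicate 1, the lowest, and -0.10 without chow replicate 2, and was highest, 0.47, without chow replicate 3. The cause was not tested. With 3 libraries a group, precision is low near the floor of 3 counts, and also for abundant genes that differ widely between HFHS libraries. The SE was 0.89 for Col1a1 and 0.65 for Col3a1, against 0.43 for Col25a1.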
